A study of Mus musculus with 13 samples.

Results

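The hedgehog pathway and its Foxf targets were followed through 8 genes, which are Hhip, Ptch1, Smo, Gli1, Gli2, Gli3, Foxf1 and Foxf2. The members were all probe sets whose annotated gene symbol was exactly 1 of these names, and they came to 20 of the 45037 probe sets tested and to 8 of the 18193 genes that the annotation names by 1 symbol. Hhip had 4 probe sets, Ptch1, Smo and Gli3 had 3 each, Gli2, Foxf1 and Foxf2 had 2 each, and Gli1 had 1.

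RNA was taken by laser capture from the presumptive intervertebral disc (IVD) and from the neighbouring vertebrae in the lumbar region of E13.5 mouse embryos, and 13 Affymetrix arrays were hybridized. Control tissue gave 3 arrays of IVD and 3 of vertebrae, and its genotype was Cre-;Tgfbr2lox/wt, so these embryos had no Cre but carried a floxed allele of Tgfbr2. Mutant tissue gave 4 arrays of IVD (Cre+;Tgfbr2lox/lox) and 3 of vertebrae (a genotype that the labels spell Cre+;Tgrbr2lox.lox), and here Cre under the Col2a promoter deleted Tgfbr2, the type II receptor for TGF-β, in Col2a expressing cells. Most of the tissue taken as IVD was future annulus fibrosus, the fibrous outer ring, and a little notochord came with it. The control discs and vertebrae were captured from the same animals. For control and mutant embryos alike, the paper describes capture of the discs and then of the adjacent vertebrae, so mutant tissues may share embryos too. The main comparisons take all arrays as unpaired. How many embryos went into an array is not given in the sources used here, so the p-values measure the spread between arrays.

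Hedgehog proteins are secreted ligands. Without ligand the receptor Ptch1 holds the transducer Smo inactive, and with ligand Smo is released and the Gli transcription factors turn on target genes, among them Gli1, Ptch1 and Hhip, and the products of Ptch1 and Hhip in turn restrain the signal at the cell surface. In the embryonic axis, Sonic hedgehog from the notochord and floor plate induces the sclerotome, the source of vertebrae and annulus fibrosus, and Indian hedgehog made by chondrocytes controls their growth and maturation. Foxf1 and Foxf2 are forkhead transcription factors of mesenchyme that are known targets of hedgehog signaling.

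Values are log2 signals centred on each probe set's median over the 13 arrays. They say how arrays differ, give no level, and cannot rank genes by abundance. The mean of 12 fibrous disc matrix genes separated the control tissues, at 0.61 to 1.51 in IVD and -0.65 to 0.02 in vertebrae. The mean of 12 cartilage genes was -1.11 to -0.06 in control IVD and -0.14 to 0.73 in control vertebrae, with a small overlap. Mutant IVD 3 went against its label, with a fibrous mean of -1.26, below all 6 control arrays, and a mean of 12 neuron genes of 3.33. The neuron mean was also high in control vertebrae 3 (2.66) and at most 0.76 elsewhere. The mean of 10 liver genes was 2.93 to 6.11 in control IVD 1, control vertebrae 1, mutant IVD 3 and mutant IVD 4, and at most 0.21 elsewhere. Skeletal muscle transcripts (mean of 10 genes) were high on only 2 arrays, control IVD 1 (2.48) and mutant IVD 4 (2.62), with 0.64 or less on the rest, and 10 of 10 of these genes were higher in IVD in controls and in mutants (median 0.47 and 0.65). Y-linked genes were high in 5 of the 7 mutant arrays and in no control array. Xist was -6.88 to -5.83 on these 5 arrays and -0.04 to 1.81 on the others. Mutant IVD 3 had a Y-linked mean of -0.02, against 1.90 to 2.20 in mutant IVD 1, 2 and 4. The comparisons of genotypes thus also differ in sex markers, and the parts of sex and genotype in them cannot be fully told apart. Mutant vertebrae 1 had the widest spread over probe sets (SD 0.74, against 0.33 to 0.52 in the others). Tgfbr2 differed by 0.11 (SE 0.17) between mutant and control IVD and by -0.24 (SE 0.18) between mutant and control vertebrae, and since no probe set could be placed inside or outside the deleted exon, this neither checks the labels nor goes against them.

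In control embryos the hedgehog genes lay toward the IVD. The gene mean, the mean of a gene's probe sets, was above that of vertebrae in control IVD for 8 of 8 genes, and 18 of 20 probe sets differed in that direction, with a median of 0.51 on the log2 scale against -0.02 over all probe sets (46.3% of which were higher in IVD). The 3 control IVD arrays were all above the 3 control vertebrae arrays for 8 of the 20 probe sets, where 3.54% of all probe sets did so. These 8 were the 4 of Hhip and 1 each of Gli1, Smo, Foxf1 and Foxf2, and no member lay entirely the other way (background 3.9%). The count was 9 without control vertebrae 3, the array with neuron transcripts (background 7.28%). In limma none of the 20 passed an adjusted p of 0.05, and 0.0% of all probe sets did. At an unadjusted p under 0.05, 5 members were higher in IVD and 0 lower, where 1.25% and 1.21% of all probe sets were. Probe sets of 1 gene are not independent, so these counts are not counts of separate genes. Among the 8 probe sets without overlap, the study had listed those of Hhip, Foxf1 and Foxf2 as IVD-enriched from these same arrays. Their share beside the background is thus no independent evidence. Fewer cells of a type and less RNA per cell cannot be told apart in bulk tissue, here or in any comparison that follows.

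**Figure D1:**
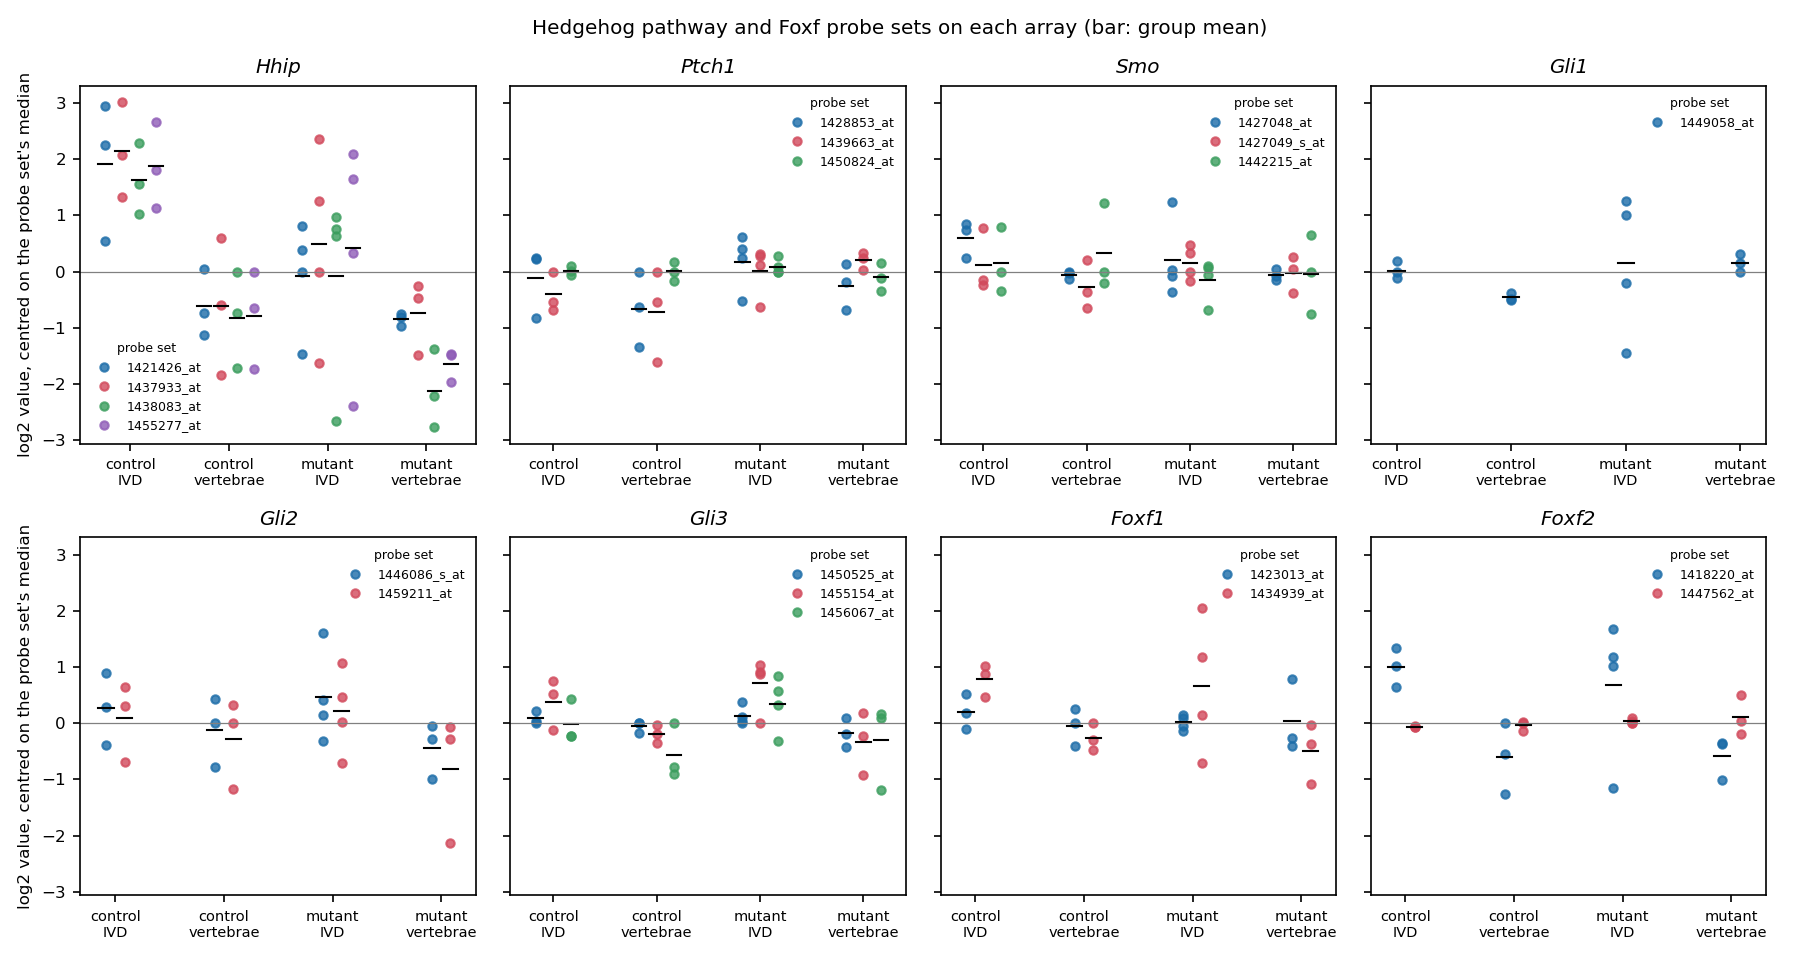
Centred log2 value of each of the 20 probe sets (colour) on each of the 13 arrays (points), by group, with the group mean as a bar. Hhip spans the widest range, with control IVD above control vertebrae in all 4 probe sets, and 1 mutant IVD array lies far below the other 3 in Hhip and in the Foxf2 probe set 1418220_at.

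Hhip encodes a membrane protein that binds hedgehog ligands and keeps them from Ptch1. Its gene mean was 1.01, 2.73 and 1.92 in control IVD 1 to 3 and -0.68, 0.16 and -1.60 in control vertebrae 1 to 3. The lowest IVD value was thus above the highest vertebrae value, and the groups did not overlap. The difference was 2.59 (SE 0.77, 95% interval 0.93 to 4.26), which is 6.03-fold on the linear scale, with an adjusted p of 1 in limma (unadjusted p = 0.00532). The 4 Hhip probe sets gave 2.44 to 2.75, and over the 13 arrays each pair of them correlated with r of 0.86 to 0.96. Each Hhip probe set varied more between arrays than at least 99.1% of all probe sets. The study listed these 4 Hhip probe sets among its IVD-enriched genes from these same arrays, and that choice makes the direction no independent evidence.

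In the mutants Hhip lay higher in 3 of the 4 IVD arrays than in any vertebrae array. The gene mean was 1.17, 1.40, -2.04 and 0.24 in mutant IVD 1 to 4 and -1.45, -1.22 and -1.33 in mutant vertebrae 1 to 3. Mutant IVD 3 was the lowest of all 13 arrays, and the other 3 IVD arrays were above all mutant vertebrae arrays. With the 4 arrays, Hhip was 1.53 higher in mutant IVD than in mutant vertebrae (SE 0.72, 95% interval -0.03 to 3.08; limma, adjusted p = 0.629). Without mutant IVD 3 the difference was 2.27 (adjusted p = 0.0777), and with the neuron mean as a covariate it was 2.36 and passed (adjusted p = 0.0141).

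Mutant IVD had less Hhip signal than control IVD. The difference of the gene means was -1.69 (SE 0.72, 95% interval -3.25 to -0.14), with an unadjusted p of 0.0355 and an adjusted p of 1 in limma. All 4 Hhip probe sets were lower, by values from -1.98 to -1.45, and only in 1438083_at did the 4 mutant arrays lie entirely below the 3 controls. The Hhip gene means of mutant IVD 1 and mutant IVD 2 fell within the range of control IVD, and those of mutant IVD 3 and mutant IVD 4 lay below it. Mutant IVD 3 was also the array with neuron transcripts and a low fibrous mean, and without it the Hhip difference was -0.95. Without the 4 arrays of high liver mean, which include both arrays with muscle transcripts, Hhip was 3.05 higher in IVD than in vertebrae in controls and 2.62 in mutants (limma, adjusted p = 0.203 and 0.0925). Between mutant and control vertebrae Hhip differed by -0.63 (SE 0.77), by -1.07 without control vertebrae 3, the other array of high neuron mean, and by -0.20 without control vertebrae 2. The difference between the 2 genotype effects was -1.07 (SE 1.05, 95% interval -3.35 to 1.21), and this value was 0.12 without both arrays of high neuron mean. The study also chose Hhip as lower in mutant IVD on these arrays. The unequal variance test of its methods, run here at 2-fold and an unadjusted p under 0.05, called no Hhip probe set between mutant and control IVD. It called 133 probe sets in all in this comparison, fewer than the number of genes in the study's list. The study names no fold limit for that list. The list was thus not reproduced here, and this test does not check the study's choice of Hhip.

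**Figure D2:**
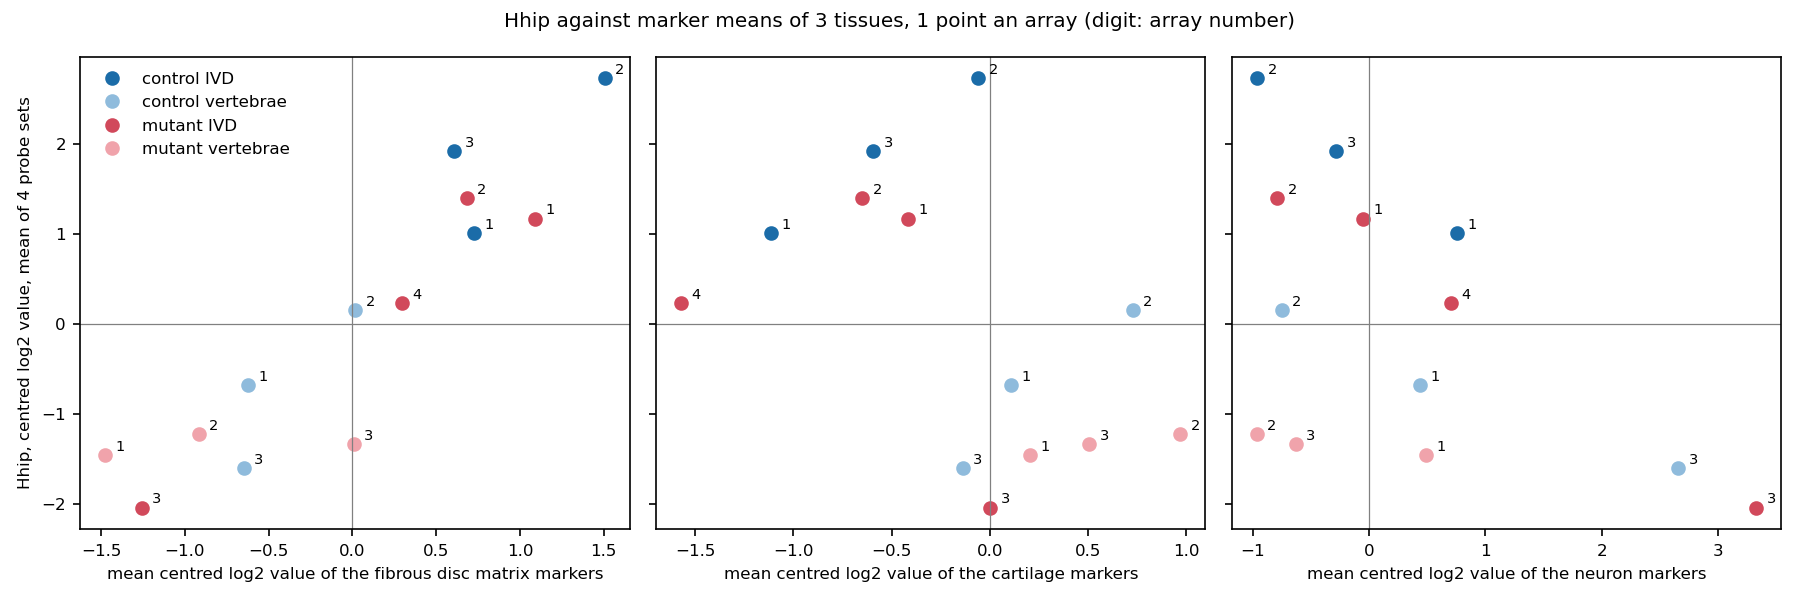
Mean centred log2 value of the 4 Hhip probe sets against the mean of the fibrous disc matrix, cartilage and neuron marker lists, 1 point an array, coloured by group and numbered by array. Hhip follows the fibrous disc matrix mean across groups, and mutant IVD 3 lies at the low end of both and at the high end of the neuron mean.

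Across the 13 arrays Hhip followed the fibrous disc matrix mean (r = 0.92) and ran against the neuron mean (r = -0.55). These were not the only such lists. Hhip also followed the mean of hedgehog receptors and co-receptors (0.907). It ran against the means of hedgehog ligands and their release (-0.73), neural progenitor and floor plate genes (-0.679) and hypertrophic chondrocyte genes (-0.675). All points of these correlations are arrays that also differ in tissue and genotype, and the part that the neighbouring tissue had in the Hhip differences was not tested. Of 18192 other genes, those most alike to Hhip over the 13 arrays were Hs3st3a1 (r = 0.957), Gdf5 (0.956), Gna14 (0.952), Aspn (0.948) and Ogn (0.944). Gdf5 is a growth factor of joint interzones, Aspn and Ogn are small leucine-rich proteoglycans of fibrous matrix, and 2 of the 12 fibrous disc matrix genes, Aspn and Ogn, are thus in this group.

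The sequence just before the Hhip start is shown because Hhip is a known Gli target and carried the widest difference. In the RefSeq promoter table (GRCm38.p6) 6 of the 8 genes had a window, all but Foxf1 and Gli1, and the 250 bases before the start were searched on both strands. The Gli consensus GACCACCCA was in 0.225% of 32851 windows, and in none of the 6. Its core CCACCC, which lies within the consensus, was in 28.1% of windows and in those of Hhip, Gli2, Gli3, Smo and Foxf2, and the forkhead motif GTAAACA was in 3.17% of windows and in none of the 6. The bases G and C made up 67.2% (Gli2) to 78.4% (Ptch1) of the 6 windows. No share was computed for windows of like composition, so an excess of the core cannot be read from these shares. Capitals mark CCACCC or its reverse complement GGGTGG. In the Hhip window (minus strand, chr8:80058009-80058258, 5′ to 3′) the core starts 158 bases before the start of the transcript, and these letters show no binding.
Hhip: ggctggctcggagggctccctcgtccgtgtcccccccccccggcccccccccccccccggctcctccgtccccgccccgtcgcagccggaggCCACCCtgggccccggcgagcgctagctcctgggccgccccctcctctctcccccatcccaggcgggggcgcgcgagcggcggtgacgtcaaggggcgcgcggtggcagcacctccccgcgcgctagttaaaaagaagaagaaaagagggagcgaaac

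Ptch1, the hedgehog receptor and itself a Gli target, showed small differences that its 3 probe sets did not share. In probe set 1428853_at the values were 0.25, 0.23 and -0.82 in control IVD 1 to 3 and 0.00, -0.63 and -1.34 in control vertebrae 1 to 3. The groups overlapped, while within each numbered pair IVD was higher, by 0.25, 0.87 and 0.51. In probe set 1450824_at the 13 values stayed within -0.34 to 0.28, a spread smaller than that of all but 8.04% of probe sets. The Ptch1 gene mean differed between control IVD and control vertebrae by 0.29 (95% interval -0.23 to 0.81). It differed by 0.26 (-0.22 to 0.75) between mutant and control IVD and by 0.40 (-0.12 to 0.92) between mutant and control vertebrae, or 0.14 without control vertebrae 3. In the latter comparison 1439663_at was 0.34, 0.24 and 0.03 in mutant vertebrae 1 to 3 and -0.53, 0.00 and -1.60 in control vertebrae 1 to 3. Its mutant values were all above its control values, and the difference was 0.91 (SE 0.37; unadjusted p = 0.0305, adjusted p = 0.998 in limma). The control vertebrae array at -1.60 was the one with neuron transcripts, and without it the difference was 0.47 (unadjusted p = 0.164).

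Smo, the membrane protein that carries the signal into the cell, was higher in control IVD without overlap of the groups in 1 of its 3 probe sets. Probe set 1427048_at was 0.24, 0.84 and 0.73 in control IVD 1 to 3 and 0.00, -0.02 and -0.13 in control vertebrae 1 to 3. These groups did not overlap, and the difference was 0.66 (SE 0.33, 95% interval -0.07 to 1.39). Probe set 1427049_s_at was also higher in IVD, by 0.39 on average and by 0.12, 0.56 and 0.50 in pairs 1 to 3, but its groups overlapped. Probe set 1442215_at lay the other way in pairs 1 and 2, and the Smo gene mean differed by 0.29 (-0.38 to 0.95). Between genotypes the Smo gene mean differed by -0.22 (-0.84 to 0.40) in IVD and by -0.05 (-0.71 to 0.62) in vertebrae.

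Gli1, an activator whose own transcription is a common readout of hedgehog signaling, had a narrow range in 3 of the groups. It was -0.12, 0.18 and 0.00 in control IVD 1 to 3 and -0.49, -0.38 and -0.50 in control vertebrae 1 to 3. The groups did not overlap and the differences within pairs were 0.37, 0.56 and 0.50. In the mutants Gli1 was 1.26, -1.44, -0.20 and 1.004 in IVD 1 to 4 and 0.31, 0.16 and 0.00 in vertebrae 1 to 3. Mutant vertebrae were thus all above control vertebrae, by 0.61 on average (SE 0.53, 95% interval -0.54 to 1.76; limma, adjusted p = 0.998 and unadjusted p = 0.269). The SD of Gli1 was 1.24 in mutant IVD and 0.07 to 0.15 in the other groups, while limma used 1 spread for all 4 groups. With a variance of its own for each group, the test of the study's methods gave Gli1 an unadjusted p of 0.019 for control IVD against vertebrae and 0.01 for mutant against control vertebrae, with an adjusted p of 1 for both. The Gli1 mean was 0.16 in mutant IVD and 0.15 in mutant vertebrae, with a 95% interval of -1.07 to 1.08 for the difference.

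Gli2 is the main activator and Gli3 the main repressor of the pathway. The Gli2 gene mean ran from -0.54 to 0.77 in control IVD and from -0.97 to 0.38 in control vertebrae, groups that overlapped widely, and the difference of 0.37 was less than the SD of either group (0.66 and 0.70). Within the numbered pairs, however, Gli2 was higher in IVD by 0.29, 0.39 and 0.44. Gli3 was higher in IVD by 0.58, 0.48 and 0.21 in these pairs, and its mean difference of 0.42 was more than the SD of either group (0.29 and 0.24), although the groups overlapped. Between mutant tissues the Gli2 gene mean differed by 0.97 (95% interval -0.12 to 2.06), by 0.51 without mutant vertebrae 1, the array of widest spread, and by 0.64 without mutant IVD 1. The Gli3 gene mean differed by 0.66 (0.16 to 1.16; unadjusted p = 0.0138, adjusted p = 0.42 in limma). Among Gli3 probe sets 1455154_at had 1.04, 0.91, 0.00 and 0.87 in mutant IVD 1 to 4 and -0.92, 0.18 and -0.23 in mutant vertebrae 1 to 3. Again mutant IVD 3 lay apart from the other mutant IVD arrays and within the range of the vertebrae. Between genotypes Gli3 differed by 0.24 (-0.26 to 0.74) in IVD and by -0.0001 (-0.54 to 0.54) in vertebrae.

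Foxf1 was followed mainly by probe set 1434939_at, the one that varied more over the arrays, and 1423013_at did not move with it (r = 0.20). The values cannot say which of them follows Foxf1 better. Probe set 1434939_at was 0.47, 1.02 and 0.87 in control IVD 1 to 3 and -0.48, -0.30 and 0.00 in control vertebrae 1 to 3. The groups did not overlap, and the difference was 1.05 (SE 0.55, 95% interval -0.15 to 2.25; limma, adjusted p = 1). Between the same groups 1423013_at differed by 0.25 and the Foxf1 gene mean by 0.65. In mutants 1434939_at was 0.15, 1.18, -0.72 and 2.04 in IVD 1 to 4 and -0.37, -0.03 and -1.09 in vertebrae 1 to 3. Without mutant IVD 3 these groups did not overlap either, and the difference went from 1.16 to 1.62 (adjusted p = 0.6 and 0.198). Without mutant IVD 4, the highest array and 1 of the 2 with muscle transcripts, it was 0.70 (adjusted p = 0.765). Mutant IVD differed from control IVD by -0.12 (95% interval -1.25 to 0.9998).

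Foxf2 had 1 probe set, 1418220_at, that varied more than 97.7% of all probe sets, and another, 1447562_at, that stayed within -0.20 to 0.50 and ran against it (r = -0.36). Probe set 1418220_at was 1.01, 1.34 and 0.64 in control IVD 1 to 3 and 0.00, -0.55 and -1.26 in control vertebrae 1 to 3. IVD was higher in every array, by 1.60 on average (SE 0.59, 95% interval 0.31 to 2.89), which is 3.03-fold, with an unadjusted p of 0.019 and an adjusted p of 1 in limma. Between the same groups 1447562_at differed by -0.03 and the Foxf2 gene mean by 0.79. In mutants 1418220_at was 1.01, 1.67, -1.14 and 1.18 in IVD 1 to 4 and -1.02, -0.35 and -0.37 in vertebrae 1 to 3. The 3 mutant IVD arrays other than mutant IVD 3 lay at 1.01 to 1.67, where the control IVD arrays lay at 0.64 to 1.34. Between mutant and control IVD the difference was -0.31 (-1.52 to 0.89) with all arrays. The study listed 1418220_at and the Foxf1 probe set 1434939_at as IVD-enriched from these arrays, and the same limit applies to their direction on these arrays. The paper also counted both genes, with a literature reference, among those whose preference for the IVD it had verified beyond the arrays.

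The Foxf2 window is printed beside that of Hhip because Foxf2 was the member most alike to Hhip over the 13 arrays (r = 0.86), and it holds the core in 2 copies on the reverse strand (plus strand shown, chr13:31625566-31625815, 5′ to 3′). The 2 copies begin 196 and 191 bases before the transcript start and overlap by 1 base.
Foxf2: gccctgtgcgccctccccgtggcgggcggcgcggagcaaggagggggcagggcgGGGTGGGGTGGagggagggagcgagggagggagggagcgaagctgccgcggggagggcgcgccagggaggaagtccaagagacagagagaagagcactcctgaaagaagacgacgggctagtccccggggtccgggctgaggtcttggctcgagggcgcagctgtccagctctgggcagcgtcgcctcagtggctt

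Genes most alike to Foxf2 over the 13 arrays were Fzd8 (r = 0.958), Sema3e (0.951), Rgmb (0.947), Rhoq (0.942) and Pax1 (0.941). Pax1 is a transcription factor of the sclerotome that Sonic hedgehog induces. The forkhead genes that neighbour Foxf2 on the chromosome, Foxc1 and Foxq1, differed between control IVD and control vertebrae by 0.03 (SE 0.56) and 0.02 (SE 0.28). Foxc2 and Foxl1, the neighbours of Foxf1, differed by 0.22 (SE 0.43) and -0.10 (SE 0.15). Mthfsd, another neighbour of Foxf1, differed by -0.53 (SE 0.37) and was the only one of these 5 genes whose control groups did not overlap.

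The control arrays were also compared by number, since both tissues were captured from the same animals. The labels do not say that equal numbers mark the same animal. Numbers were taken as pairs because of correlations in these same arrays. IVD was higher than vertebrae in each of the 3 numbered pairs for 14 of 20 probe sets, where 15.7% of all probe sets were, and lower in each pair for 0, where 17.6% were. The 14 include all Hhip probe sets and the Foxf1 and Foxf2 probe sets that the study listed from these arrays. Probe sets of 1 gene are not independent. The Hhip gene mean differed by 1.69, 2.57 and 3.52 in pairs 1 to 3, and Foxf2 1418220_at by 1.01, 1.89 and 1.90. Foxf1 1434939_at differed by 0.96, 1.32 and 0.87. In limma with a random block for the pair, 10 members were higher in IVD at an unadjusted p under 0.05, where 5.69% of all probe sets were, and 0 of 20 passed an adjusted p of 0.05, where 0.0933% did. The smallest adjusted p with this block were 0.0863 for Foxf1 1434939_at, 0.0933 for Hhip 1438083_at and 0.102 for Foxf2 1418220_at, and the Hhip gene mean reached 0.0596.

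**Figure D3:**
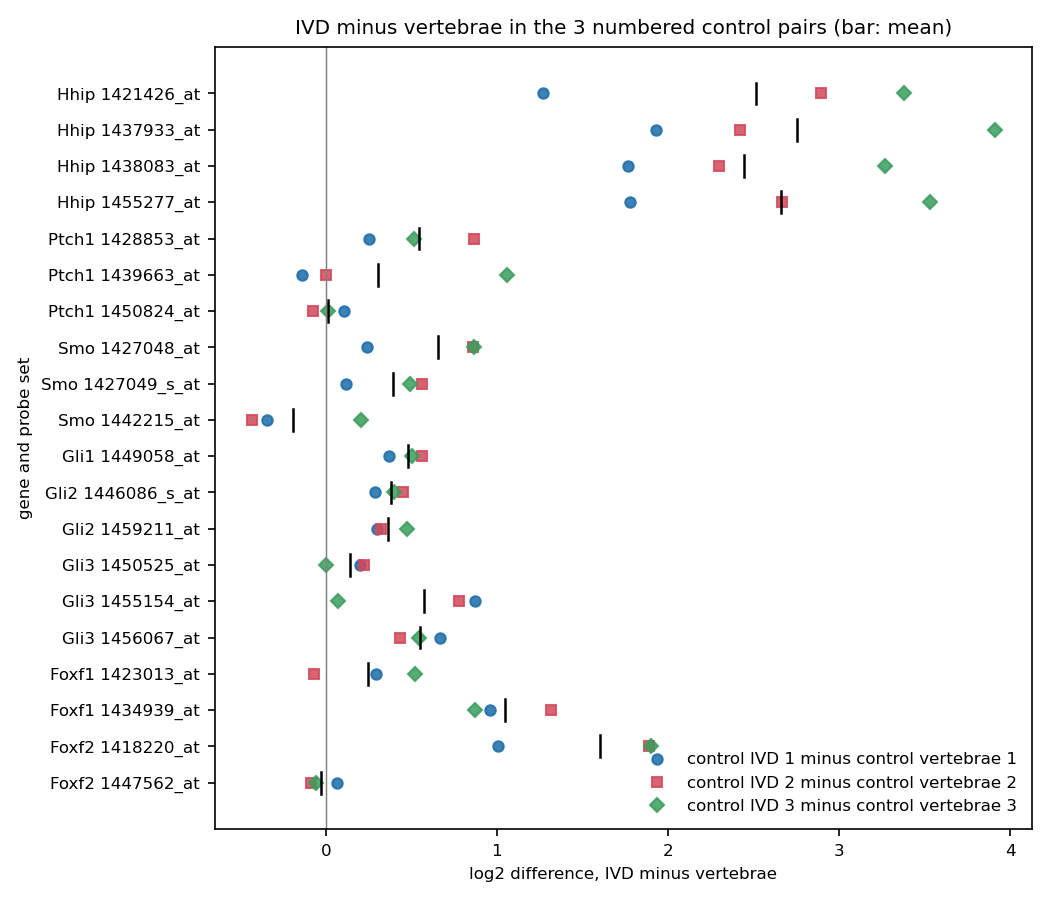
Log2 difference of IVD minus vertebrae within each numbered pair of control arrays for each of the 20 probe sets (3 points, 1 a pair) with the mean as a bar. All 3 points lie above 0 for 14 probe sets, and the 4 Hhip probe sets lie farthest out, with means from 2.44 to 2.75.

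In the mutants most of the hedgehog genes also lay toward the IVD. All 8 gene means were higher in mutant IVD, but Gli1 by only 0.0029, Smo by 0.11 and Ptch1 by 0.15. Of the 20 probe sets 16 were higher, where 46.7% of all probe sets were. The median difference was 0.54 against -0.02 over all probe sets. With all arrays no member had groups without overlap, where 3.41% of all probe sets were higher and 3.21% lower in IVD without overlap. Without mutant IVD 3, 11 of 20 had higher values in IVD without overlap, where 6.23% of all probe sets did. In limma 0 of 20 passed an adjusted p of 0.05 with all arrays, where 0.0155% of all probe sets did. At an unadjusted p under 0.05, 5 members were higher (background 4.35%) and 0 lower (background 3.72%). Without mutant IVD 3, 3 passed, where 0.393% of all probe sets did, and they were Hhip 1438083_at (2.90, adjusted p = 0.0301), Hhip 1455277_at (2.99, adjusted p = 0.0483) and Foxf2 1418220_at (1.87, adjusted p = 0.0471). The same 3 passed without both arrays of high neuron mean (background 0.349%). With the neuron mean as a covariate 2 passed (background 0.195%), Hhip 1437933_at (2.22) and 1455277_at (3.05).

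**Figure D4:**
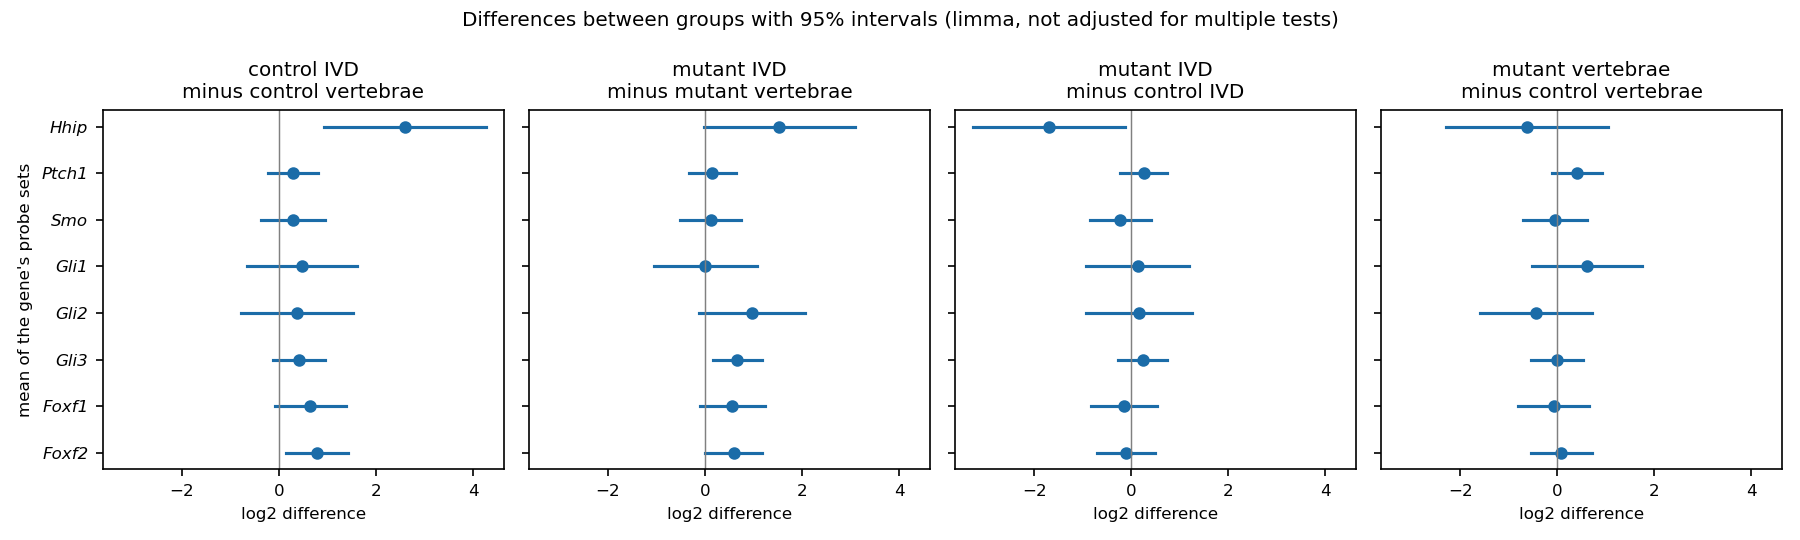
Log2 differences between groups (points) with 95% intervals from limma (lines) for the 8 gene means in 4 comparisons. All 8 points lie above 0 in both comparisons of IVD with vertebrae, though Gli1 lies at 0.0029 between mutant tissues. Between genotypes the Hhip interval in IVD, -3.25 to -0.14, is the only one of 16 that lies below 0.

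Between genotypes the members showed no common direction. These comparisons also differ in sex markers, since Y-linked genes were high in most mutant arrays and in no control array. In mutant against control IVD 11 probe sets were higher and 9 lower, where 59.6% of all probe sets were higher. Their median was 0.04 where that of all probe sets was 0.05. In mutant against control vertebrae 8 were higher and 12 lower, where 58.8% of all probe sets were higher, with a median of -0.11 against 0.05. In limma 0 of 20 passed an adjusted p of 0.05 in either comparison, where 0.0% of all probe sets did. At an unadjusted p under 0.05, Hhip 1421426_at was lower in mutant IVD (background 0.848%) and none was higher (background 2.28%), while Ptch1 1439663_at was higher in mutant vertebrae (background 1.74%) and none was lower (background 0.873%). In IVD the genotypes did not overlap for Hhip 1438083_at, lower in mutants (background 0.937%), and for Foxf2 1447562_at, higher in mutants by only 0.10 (background 3.68%). In vertebrae they did not overlap for Ptch1 1439663_at and Gli1, higher in mutants (background 3.63%), and for none that was lower (background 1.93%). The interaction of tissue and genotype passed for none of the 20, at an adjusted p (background 0.0%) or an unadjusted one (background 0.793% higher and 0.582% lower). By the unequal variance test of the methods, read here as a change of at least 2-fold and an unadjusted p under 0.05 since no adjustment is named, 5 members were higher in control IVD (background 0.413%) and 0 lower (background 0.155%). It called 0 members in mutant against control IVD (background 0.229% higher and 0.0666% lower), in mutant against control vertebrae (background 0.0711% and 0.0511%) and between mutant tissues (background 0.775% and 0.482%). After Benjamini-Hochberg adjustment this test called 0 members.

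Of 65 further genes of the pathway and of the forkhead family listed for comparison, 60 were measured. In control embryos 31 of the 60 gene means were higher in IVD and 29 lower, with a median of 0.02 against -0.01 over all genes. None passed an adjusted p of 0.05 in any of the 5 comparisons in limma, where 0.0% of genes passed in 4 of them and 0.0275% between mutant tissues. At an unadjusted p under 0.05, 3 of the 60 were higher and 3 lower in control IVD, where 1.61% and 1.07% of all genes were. Without overlap of the control groups 7 were higher (background 4.24%) and 6 lower (background 3.84%). At that p 4 were higher and 0 lower in mutant than in control IVD (background 2.06% and 0.951%), and 5 were higher without overlap (background 3.58%). In mutant against control vertebrae 2 were higher and 1 lower at that p (background 1.49% and 1.03%), and between mutant tissues 9 and 5 (background 4.83% and 3.26%).

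Of the 6 measured receptors and co-receptors, 5 were higher and 1 lower in control IVD, with a median of 0.22. Gas1 and Cdon, which present hedgehog ligands to Ptch1, were the 2 of them at an unadjusted p under 0.05, both higher in IVD (background 1.61%). Gas1 was 0.51, 1.29 and 0.43 in control IVD 1 to 3 and -0.58, -0.64 and -0.69 in control vertebrae 1 to 3. These groups stood well apart, with a difference of 1.38 (SE 0.45; limma, unadjusted p = 0.00965, adjusted p = 1). Cdon was 0.18, 0.96 and 0.24 in control IVD and -0.60, 0.00 and -0.80 in control vertebrae, a difference of 0.93 (SE 0.31). In mutants Gas1 was 0.54, 0.42, -1.08 and 0.84 in IVD 1 to 4 and -1.08, -1.10 and 0.00 in vertebrae 1 to 3, so that mutant IVD 3 again had the value of vertebrae. Boc, a relative of Cdon with the same role, differed by 0.19 (SE 0.25) between control tissues.

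Of the 9 genes for ligands and their release, 2 were higher and 7 lower in control IVD, with a median of -0.13. Ihh, the chondrocyte ligand, was 0.17, 0.10 and -0.04 in control vertebrae 1 to 3 and 1.64, 0.98 and 0.54 in mutant vertebrae 1 to 3. All mutant vertebrae arrays were above all 10 other arrays, which ran from -0.67 to 0.17. The difference between mutant and control vertebrae was 0.97 (SE 0.27; limma, unadjusted p = 0.00361, adjusted p = 0.999), and that between mutant IVD and mutant vertebrae was -1.44 (SE 0.25; adjusted p = 0.0664). Mutant vertebrae 1, the highest, was also the array with the widest spread over probe sets, and the mean of 5 hypertrophic chondrocyte genes, Ihh among them, was 0.20 to 1.06 in mutant vertebrae and -0.01 to 0.26 in control vertebrae. Disp1, which releases the ligand from the cells that make it, was 0.26 to 0.43 in mutant and -0.24 to -0.08 in control vertebrae (difference 0.51, SE 0.14; adjusted p = 0.999 in limma). Shh differed by 0.21 (SE 0.41) in this comparison and by -0.08 (SE 0.41) between control tissues.

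**Figure D5:**
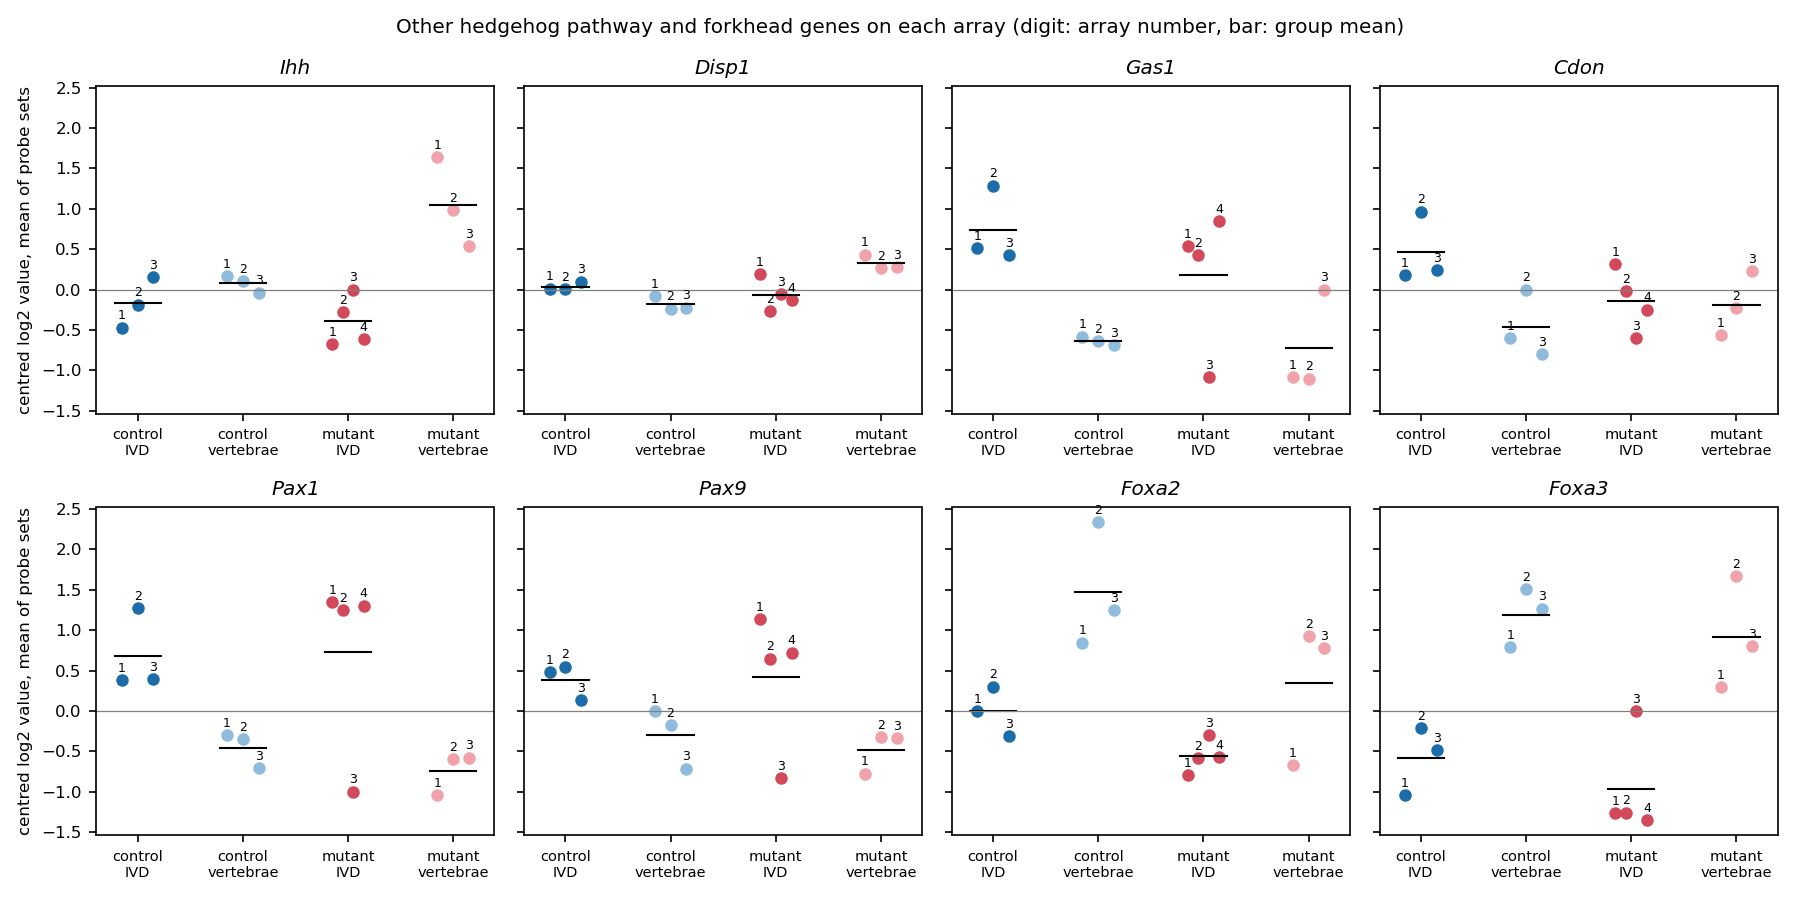
Gene means (centred log2 values) of 8 listed pathway and forkhead genes on each array, numbered by array, with the group mean as a bar. Ihh and Disp1 are highest in mutant vertebrae, in controls Gas1, Cdon, Pax1 and Pax9 are higher in IVD than in vertebrae, and Foxa2 and Foxa3 are lower.

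Of the 19 measured genes that carry the signal from Smo to the Gli proteins, 0 had an unadjusted p under 0.05 in the control comparison (background 2.68%), and 1 had in that of mutant with control IVD (background 3.01%), a share near that of all genes. It was Gsk3b, a kinase that marks Gli proteins for processing, at 0.61 (SE 0.22, adjusted p = 1 in limma). Sufu, which holds Gli proteins in the cytoplasm, differed by -0.04 (SE 0.14) between control tissues, and Kif7, which acts at the tip of the cilium, by 0.14 (SE 0.28).

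Of 11 measured genes that hedgehog signaling regulates in sclerotome and cartilage, 8 were higher and 3 lower in control IVD, with a median of 0.18. Pax1 and Pax9, the paired factors of the ventral sclerotome, were higher in control IVD by 1.13 (SE 0.52) and 0.68 (SE 0.40), without overlap of the control groups. In mutant IVD 1, 2 and 4 Pax1 was 1.35, 1.25 and 1.30 and in mutant IVD 3 it was -0.997, against -1.04 to -0.58 in mutant vertebrae. Sox9, the master factor of cartilage, ran the other way, by -0.56 (SE 0.23) between control tissues. Nkx3-2, a repressor downstream of hedgehog in sclerotome, differed by 0.18 (SE 0.15). Each of these values had an adjusted p of 1 in limma.

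Of 12 measured forkhead genes that lie elsewhere in the genome, 7 were higher and 5 lower in control IVD, with a median of 0.04. Foxa2, a target of Sonic hedgehog in the floor plate, was 0.00, 0.30 and -0.31 in control IVD 1 to 3 and 0.85, 2.34 and 1.25 in control vertebrae 1 to 3. Control vertebrae were thus higher in every array, by 1.48 (SE 0.42; limma, unadjusted p = 0.00435, adjusted p = 1 for IVD minus vertebrae). Foxa3 lay lower in control IVD by 1.77 (SE 0.41) and in mutant IVD against mutant vertebrae by 1.89 (SE 0.38; adjusted p = 0.119). Over the 6 measured notochord markers, Foxa2 among them, the mean was -0.08 to 0.62 in control IVD and -0.40 to 0.62 in control vertebrae. Foxp1, a forkhead repressor, was higher in mutant than in control IVD by 0.89 (SE 0.26; limma, unadjusted p = 0.00465, adjusted p = 1), without overlap of these groups.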

How the data were processed

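Laser-captured lumbar tissue of E13.5 embryos gave RNA (50 ng) that was amplified in 2 cycles and hybridized to 13 Affymetrix arrays. Per the study's methods the deposited values are log2 RMA signals made by the authors in GeneSpring, and every row of the deposited table is centred so that its median is 0. Neither levels nor signal over background can be read from it, and precision is set by how many arrays there are. Of 45101 probe sets 64 controls were left out. The annotation gave 1 gene for 34945 of the remaining 45037 probe sets, several for 932 and none for 9160, and only the first were named. Arrays were grouped by title.

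All 45037 probe sets, and separately the means of 18193 genes, were fitted in limma 3.58.1 (R 4.3.3) over the 4 groups, with 2-sided tests and Benjamini-Hochberg adjustment over the whole table. Calls were made at an adjusted p of 0.05, and intervals are 95% and unadjusted. Alternatives were the 2 groups alone, a replicate block, quantile normalization, array weights, a variance trend, the methods' unequal variance test, marker means as covariates, and arrays left out. The omission of arrays with a neuron mean over 2 and the fixed block within controls were chosen after seeing the data. The members, the lists and the rule for named genes (all members of the 6 pathway lists, and the 5 genes most alike to Hhip and to Foxf2) were chosen with earlier results of these data known.

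Both control tissues were captured from the same animals, but the labels do not say that equal numbers mark the same animal. Deviations from the group means of arrays of the same number correlated at 0.801, 0.569 and 0.567 in controls, so these were treated as pairs, and at -0.405, 0.243 and -0.146 in mutants, which were not. On simulated data of 45037 probe sets, limma called 79 of 100 shifted by 2 on the log2 scale between control tissues and 25 of 100 shifted by 1. It also called 8 probe sets that were not shifted. The simulated noise was normal and independent between probe sets, and the shifted ones were picked at random. These shares therefore do not carry over to the members, since the Hhip probe sets varied more than most. Promoter windows were RefSeq sequence, and figures were drawn in matplotlib 3.10.9.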

Additional observations from a re-analysis of the deposited data

Results flagged for a closer look

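In the group of 4 mutant IVD arrays, mutant IVD 3 stood apart from the other 3 by more than the 95% critical value of Dixon's test in 3 of 27 values tested. They were the Gli3 gene mean (-0.11), the Gli3 probe set 1455154_at (0.0) and the Hhip probe set 1438083_at (-2.66). Chance alone sets apart about 1 in 20 such groups, and the Gli3 probe set is part of the Gli3 mean. The same array had the high neuron mean (3.33) and the low fibrous disc matrix mean (-1.26), and their part in these values was not tested.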

How the results depend on the processing

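The count of hedgehog and Foxf probe sets past an adjusted p of 0.05 in limma was 0 under all alternatives run for the comparison of control tissues, both comparisons of genotypes and the interaction. Between mutant tissues it was 2 with the neuron mean as a covariate, 3 without the arrays of high neuron mean and 0 to 3 when arrays were left out singly, with 3 without mutant IVD 3. Of 1134 differences of genes and probe sets under alternatives, 1059 stayed on their side of the threshold with the same sign, 10 passed it, and 65 changed sign, none of them a called value. The 10 were all between mutant tissues, and they included the gene means of Hhip with the neuron mean as a covariate (2.36, adjusted p = 0.0141) and of Foxf2 without the arrays of high neuron mean (0.89, adjusted p = 0.0433). The causes were not tested.

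With the array number as a replicate block over all arrays no member was called, and Gli1 changed sign between mutant and control IVD (-0.15) and between mutant tissues (-0.28). Pairing within controls as a random block gave an adjusted p of 0.0596 for the Hhip mean, and as a fixed block 0.0502.

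Without the arrays of high neuron mean, Gli2 was -0.0158 between control tissues. Between mutant and control IVD Foxf1 was then 0.0516 and Foxf2 0.19, and between mutant and control vertebrae Foxf1 was 0.0047 and Foxf2 -0.0654. The interaction became 0.12 for Hhip, 0.25 for Ptch1, 0.0356 for Smo, 0.0469 for Foxf1 and 0.25 for Foxf2. With the neuron mean as a covariate Foxf2 was 0.10 between mutant and control IVD and -0.17 between mutant and control vertebrae, Gli1 was -0.018 between mutant tissues, and the interaction was 0.44 for Hhip, 0.215 for Ptch1, 0.2151 for Smo, 0.0853 for Foxf1 and 0.27 for Foxf2. With the mean of Y-linked genes as covariate Ptch1 was -0.0019, Gli1 -0.0421, Gli2 -0.27 and Gli3 -0.0473 between mutant and control IVD, Foxf2 was -0.34 between mutant and control vertebrae, and Gli1 was -0.0254 between mutant tissues. Without arrays that carry liver transcripts Gli1 was -0.18 and Foxf2 0.21 between mutant and control IVD, and Gli1 was -0.24 between mutant tissues (-0.0261 with the liver mean as a covariate). Array weights gave -0.12 for Gli2 between mutant and control IVD, 0.0613 for Gli3 between mutant and control vertebrae, -0.0633 for Smo between mutant tissues and 0.30 for Foxf1 in the interaction, and quantile normalization gave 0.13 for Gli3 between mutant and control vertebrae.

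When arrays were left out singly, Gli2 ran from -0.0158 to 0.73 between control tissues. Between mutant and control IVD Gli1 ran from -0.23 to 0.67, Gli2 from -0.19 to 0.46, Smo from -0.42 to 0.0329, Foxf1 from -0.40 to 0.0516 and Foxf2 from -0.27 to 0.19. Between mutant and control vertebrae Gli2 ran from -0.82 to 0.0273, Gli3 from -0.15 to 0.20, Smo from -0.22 to 0.18, Foxf1 from -0.29 to 0.19 and Foxf2 from -0.0654 to 0.22. Between mutant tissues Gli1 ran from -0.37 to 0.535 and Smo from -0.0682 to 0.27. The interaction ran from -0.29 to 0.12 for Ptch1, -0.84 to 0.057 for Gli1, -0.40 to 0.08 for Smo, -0.34 to 0.14 for Foxf1 and -0.36 to 0.10 for Foxf2.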
